A study of Rattus norvegicus with 12 samples.

Results

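Apolipoproteins and the proteins that load lipid onto them were read from RNA sequencing of rat liver after partial hepatectomy (PH), the removal of most of the liver that makes the remnant grow back. Of 10 genes listed by name (APOA1, APOA2, APOA4, APOA5, APOB, APOC3, APOE, APOM, MTTP and LCAT), 8 were matched by symbol in a table of 14692 genes. APOA1 and APOC3 were not analysed here. All 8 had a mean of at least 1 RPKM (reads scaled to transcript length and to the total of the library) over the 12 columns of the table, as did 8459 genes in all. Male Sprague Dawley rats of 4 to 5 months carried a duodenal catheter with a saline infusion in every group. Control rats had a sham biliary fistula 24 h before PH. The other rats had a biliary fistula, which drains bile out of the body, either alone or with sodium taurocholate, a bile acid, infused through the catheter at 0.5 mg/g/day, starting 12 h ahead of PH. Livers were taken at 0, 4, 12 and 24 h after PH, and each of the 12 columns combined 1 sequencing run on RNA from 1 rat with 1 run on the combined RNA of 3 rats.

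The columns of the fistula rats were titled BF and BA. The written descriptions of the samples give the infusion to the columns titled BF, whereas the study's own account uses BF for the fistula alone. CYP7A1, the rate-limiting enzyme of bile acid synthesis, at 0, 4, 12 and 24 h had 387, 13.8, 136 and 334 RPKM in BF, 54.9, 1.81, 3.17 and 68.8 in BA and 60, 4.59, 8.53 and 57.3 in Control. It was higher in BF than in BA and Control at each time. Bile acid returning from the gut feeds back to lower this enzyme, so these values go with BF as the fistula alone, as in the study's account. The written descriptions still say the opposite, so BF and BA are used below as titles only. The labels alone do not settle which of them had the infusion. With 1 column per title and time there was no replicate, no spread between rats, and no test was run, so every difference below is a description of these columns. A size of at least 2-fold, or 1 on the log2 scale after adding 1 RPKM, was used to count genes, and the counts are set beside the share of all 8459 genes that reached it.

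Apolipoproteins are the protein coats of lipoprotein particles, and most of them are made and secreted by hepatocytes. The very low density lipoprotein (VLDL) particle is built on APOB, to which the microsomal triglyceride transfer protein MTTP adds lipid in the endoplasmic reticulum. Smaller apolipoproteins then join the particle, direct its uptake or control its lipases, and LCAT esterifies cholesterol on high density lipoprotein (HDL) in plasma.

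In all columns the 8 genes were expressed, and they went different ways after PH. APOA2, carried on HDL, and APOE, carried on remnant particles and HDL, were lower than at 0 h at each later time in all 3 titles. For APOA2 the log2 ratios at 24 h were -1.62, -1.21 and -1.72 in Control, BF and BA, the largest of the 8. APOA5 was highest at 4 h in each title, with log2 ratios to 0 h of 1.01, 1.26 and 0.89. APOB was higher at 4 and 12 h, APOM was lowest at 4 or 12 h, and MTTP was highest at 24 h. LCAT stayed between 345 and 497 RPKM.

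Promoter sequences of 3 genes are shown because APOA4 and APOA5 lie next to each other and had different courses, and APOM is set beside them as a gene from elsewhere in the genome. In RefSeq's annotation of the GRCr8 assembly, APOA1, APOC3, APOA4 and APOA5 follow one another on chromosome 8. The sequences are the 250 bases before an annotated start, from RefSeq on GRCr8, which is not a build named for the deposited values. Entries were matched for 5 of the 8 genes (APOA4, APOA5, APOE, APOM and LCAT). Capitals mark matches, on either strand, to 8 short motifs. These were the promoter box TATAAA, the promoter element CCAAT, the HNF1 half-site GTTAAT, the nuclear receptor half-site AGGTCA, the HNF4 core CAAAGTCC, the STAT palindrome TTCNNNGAA, the C/EBP core TTGCNNAA and the GC-rich element GGGCGG. The first is APOA4, on the forward strand at chr8:55435529-55435778, the second is APOA5 at its first start, on the forward strand at chr8:55457621-55457870, and the third is APOM, on the forward strand at chr20:3695368-3695617.
APOA4: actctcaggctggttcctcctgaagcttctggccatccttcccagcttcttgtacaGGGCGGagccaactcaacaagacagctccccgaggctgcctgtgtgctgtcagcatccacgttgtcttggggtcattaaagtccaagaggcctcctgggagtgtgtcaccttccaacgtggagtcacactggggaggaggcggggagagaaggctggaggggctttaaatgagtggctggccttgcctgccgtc
APOA5: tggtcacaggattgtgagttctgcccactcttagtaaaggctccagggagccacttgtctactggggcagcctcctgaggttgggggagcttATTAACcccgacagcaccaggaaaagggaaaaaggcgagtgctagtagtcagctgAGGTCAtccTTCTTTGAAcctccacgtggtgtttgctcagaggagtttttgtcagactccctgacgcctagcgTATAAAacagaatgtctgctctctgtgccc
APOM: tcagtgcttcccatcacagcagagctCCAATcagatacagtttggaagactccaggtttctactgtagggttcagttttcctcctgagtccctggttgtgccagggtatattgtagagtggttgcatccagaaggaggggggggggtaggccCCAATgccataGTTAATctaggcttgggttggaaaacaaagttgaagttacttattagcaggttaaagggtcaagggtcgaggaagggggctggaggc

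The APOA5 window held TATAAA with its first base 30 bases before the start, AGGTCA at 103, a TTCNNNGAA match at 94 and ATTAAC, which is GTTAAT on the other strand, at 158. Of 33469 rat windows of this length 12.9% held TATAAA, 14.1% AGGTCA, 7.67% TTCNNNGAA and 6.45% GTTAAT. The APOA4 window held 1 motif, GGGCGG at 194, which 30.5% of windows held. The APOM window held CCAAT at 224 and at 98, in 34.0% of windows, and GTTAAT at 87. The remaining motifs, CAAAGTCC and TTGCNNAA, were in 1.14% and 9.22% of windows and in none of these 3. A match only describes the letters in these windows and does not make a binding site.

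By level per transcript length, APOE, a ligand for uptake of remnant particles, was the highest with a mean of 9539.9 RPKM over the 12 columns. It ranked between 5 and 19 among the expressed genes. APOA2, an HDL protein, had a mean of 1419 RPKM, APOB 1267 and APOA5, an activator of triglyceride clearance, 1047. LCAT followed with 423, APOM, an HDL protein that carries sphingosine 1-phosphate, with 398 and APOA4, a protein of triglyceride-rich particles, with 361. MTTP was the lowest with a mean of 90.4 RPKM and a rank between 506 and 1520. Ranges over the 12 columns overlapped for each pair of neighbours in this order, except that every APOE value (7132 or more) was above every APOA2 value (2744 or less), every APOA5 value (541 or more) was above every LCAT value (497 or less) and every APOA4 value (185 or more) was above every MTTP value (164 or less).

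The 8 genes together took 2.77% of the summed RPKM in Control at 0 h and 1.43% in BA at 24 h, the highest and lowest shares. Sums of RPKM lay between 727435 and 785092 per column, except for BA at 4 h with 982826. In that column albumin (ALB) took 30.9% of the sum, against 5.6% to 13.4% elsewhere. RPKM is scaled to the total of the library, so an abundant transcript can lower the others. Some of the counts that include BA at 4 h are therefore also given after rescaling. The first rescaling gives each column the same median over those of the 8459 genes that were above 0 in every column. The second gives it the same total once the 10 most abundant genes are left out. In the first, BA at 4 h was divided by 0.82, the lowest factor of any column. In the second it was divided by 0.94, inside the range of 0.89 to 1.15 over the columns. Whether albumin lowered the other genes of that column was not tested. The depth of the libraries was unknown. All 7 hepatocyte markers were above 1 RPKM in each column, and their sum was between 72434 and 340804 RPKM. Of 9 pancreatic acinar markers all 9 were found, with a sum of 5.1 to 23.2 RPKM in 11 columns and 139 in BF at 12 h, and their part in values of that column was not tested. In 8 macrophage markers found of 9, a cell type that also makes APOE, the sum was 258 to 393 RPKM. The sums were 7.78 to 19.9 RPKM for 3 cholangiocyte markers found of 5, 25.4 to 60.0 for 5 stellate cell markers of 5 and 31.0 to 55.1 for 2 endothelial markers of 5. In bulk liver, fewer cells of a type and less RNA per cell cannot be told apart.

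**Figure D1:**
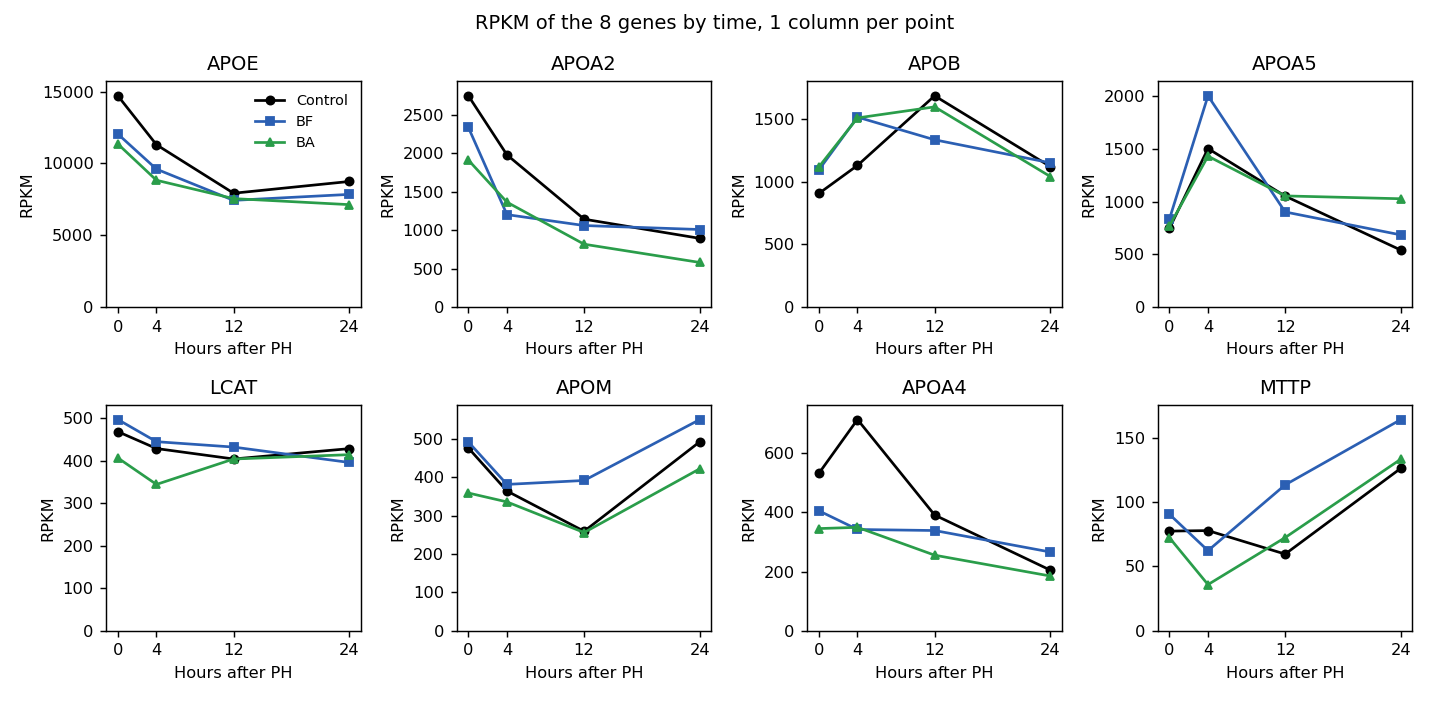
RPKM (vertical axes, from 0) against hours after PH for the 8 genes, with 1 point per column and lines joining the columns of Control (black circles), BF (blue squares) and BA (green triangles). APOA2 and APOE are below 0 h at each later time, APOA5 peaks at 4 h, MTTP is highest at 24 h and LCAT stays between 345 and 497 RPKM.

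APOA2 and APOE were below their 0 h level at each later time. APOA2 in Control was at 2744, 1977, 1142 and 893 RPKM at 0, 4, 12 and 24 h. In BF its values were 2333, 1201, 1059 and 1008, and in BA 1909, 1363, 817 and 579.6. Each title had its highest APOA2 value at 0 h and its lowest at 24 h. The log2 ratios to 0 h in Control, BF and BA were -0.47, -0.96 and -0.49 at 4 h, -1.26, -1.14 and -1.22 at 12 h and -1.62, -1.21 and -1.72 at 24 h. APOA2 was therefore at least 2-fold lower in all 3 titles at 12 and 24 h, the only 1 of the 8 genes at either time. Of all genes 2.7% were this much lower at 12 h and 0.662% at 24 h. At 12 h the count depended on the scale, since the total rescaling gave -0.96, -0.91 and -1.02, with Control and BF just under 2-fold. At 4 h 0 of the 8 were at least 2-fold lower in all 3 titles, against 2.73% of genes.

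APOE in Control was at 14708, 11302, 7927 and 8745 RPKM at the 4 times. Its values were 12047, 9605, 7431 and 7846 in BF and 11353, 8830.3, 7552 and 7132 in BA. The value at 0 h was the highest in each title, and those at 12 and 24 h lay close together. Log2 ratios to 0 h in Control, BF and BA were -0.38, -0.33 and -0.36 at 4 h, -0.89, -0.70 and -0.59 at 12 h and -0.75, -0.62 and -0.67 at 24 h. The summed macrophage markers at 0, 4, 12 and 24 h were 393, 329, 258 and 319 RPKM in Control, 330.1, 327, 267 and 358 in BF and 330.5, 344, 258 and 326 in BA. They were lowest at 12 h in each title, but at 24 h in BF and at 4 h in BA they were above 0 h where APOE was below it, and their part in the APOE values was not tested.

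The median gene also shifted over these times, which bears on small differences. The median log2 ratio to 0 h of the 8459 genes in Control, BF and BA was -0.19, -0.072 and -0.32 at 4 h, -0.16, -0.054 and -0.13 at 12 h and 0.21, 0.28 and 0.15 at 24 h. Relative to that median, APOE was at -0.19, -0.26 and -0.046 at 4 h, -0.73, -0.64 and -0.46 at 12 h and -0.96, -0.90 and -0.82 at 24 h. For APOA2 the relative values were -1.83, -1.49 and -1.87 at 24 h. The medians of the 8 genes themselves were -0.060, -0.29 and -0.17 at 4 h, -0.41, -0.23 and -0.22 at 12 h and -0.30, -0.31 and -0.038 at 24 h. Those medians depended on the scale. Median-gene rescaling gave 0.070, -0.27 and 0.10 at 4 h, -0.20, -0.18 and -0.060 at 12 h and -0.64, -0.72 and -0.29 at 24 h. Total rescaling gave 0.075, -0.16 and -0.041 at 4 h, -0.11, 0.0018 and -0.022 at 12 h and -0.16, -0.27 and -0.00096 at 24 h. On the deposited scale, in every title and at each time, some of the 8 genes were above their 0 h level (2 to 4) and the others below it (4 to 6).

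APOA5 and APOA4, which lie next to each other on the chromosome, differed in their course. APOA5 in Control was at 747, 1505, 1054 and 541 RPKM at 0, 4, 12 and 24 h. It was at 836, 2006, 903 and 685 in BF and 771, 1433, 1056 and 1029 in BA. The 4 h value was the highest in each title, and the 24 h value was below that at 0 h in Control and BF but above it in BA. The log2 ratios at 4 h were 1.01, 1.26 and 0.89 in Control, BF and BA, so 0 of the 8 genes were at least 2-fold higher in all 3 titles, against 1.71% of all genes. APOA5 missed that count by its BA value alone. It reached 2-fold in each title after median-gene rescaling (1.14, 1.27 and 1.16) and after total rescaling (1.15, 1.39 and 1.02). At 12 and 24 h none of the 8 genes was at least 2-fold higher in all 3 titles, against 0.414% and 2.54% of genes.

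APOA4 in Control was at 532, 713, 391 and 205 RPKM at the 4 times, with its highest value at 4 h. In BF it was at 405, 342, 339 and 266 RPKM and in BA at 345, 349, 255 and 185. The 4 h value was below that at 0 h in BF and nearly level with it in BA, where the log2 ratio of 0.017 became 0.29 after median-gene and 0.14 after total rescaling. Its lowest value was at 24 h in each title. Log2 ratios to 0 h at 24 h were -1.37, -0.61 and -0.90 in Control, BF and BA, and after median-gene rescaling they were -1.71, -1.02 and -1.15, at least 2-fold lower in each title. APOA4 is also an intestinal gene. All 7 enterocyte markers were found, with a sum at 0, 4, 12 and 24 h of 60.2, 183, 193 and 116 RPKM in Control, 74.7, 134, 110.5 and 139 in BF and 87.0, 349.6, 183 and 85.5 in BA. CDH17 alone gave 50.1 to 345 RPKM, so the course of these sums is mostly that of 1 gene and not of the set. The highest sum of each title was at 12 h in Control, 24 h in BF and 4 h in BA, and the highest APOA4 value at 4 h, 0 h and 4 h. The part of these markers in the APOA4 values was not tested. FABP2 was between 1.58 and 23.8 RPKM. LGALS4 was at most 4.71 RPKM, VIL1 1.29, SI 1.14, ALPI 0.22 and TREH 0.02 in any column.

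The ratio of 2 genes in the same column does not depend on how the column was scaled. The 4 ratios given here were chosen after the values were seen. APOA5 over APOA4 in Control was 1.41, 2.11, 2.70 and 2.64 at 0, 4, 12 and 24 h. In BF the ratio was 2.06, 5.87, 2.67 and 2.58, and in BA 2.23, 4.10, 4.14 and 5.56. It was thus above its 0 h value at each later time in all 3 titles, with the highest value at 4 h in BF, at 12 h in Control and at 24 h in BA. APOA2 over APOE in Control was 0.187, 0.175, 0.144 and 0.102, in BF 0.194, 0.125, 0.143 and 0.128 and in BA 0.168, 0.154, 0.108 and 0.0813. APOA2 was lower relative to APOE at each later time than at 0 h in each title.

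**Figure D2:**
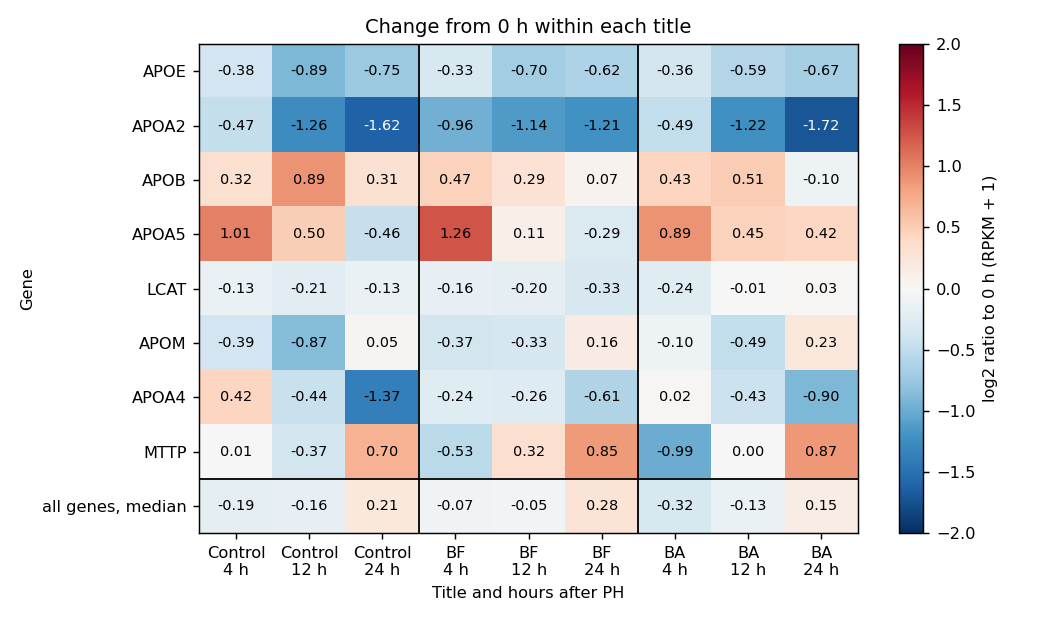
Log2 ratio to 0 h, after adding 1 RPKM, of the 8 genes (rows) at 4, 12 and 24 h in Control, BF and BA (columns of the grid), with the median of all 8459 expressed genes in the bottom row. Blue is lower and red higher than at 0 h, and the APOA2 row reaches -1.72 while the APOA5 row reaches 1.26.

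APOB and MTTP, the partners in the first step of VLDL assembly, did not move together. APOB in Control was at 907, 1130.2, 1685 and 1121 RPKM at 0, 4, 12 and 24 h. It was at 1095, 1516, 1335 and 1151 in BF and 1119, 1509, 1597 and 1041 in BA. APOB was above its 0 h level at 4 and 12 h in each title, with the highest value at 12 h in Control and BA and at 4 h in BF. Log2 ratios at 12 h were 0.89, 0.29 and 0.51 in Control, BF and BA, and relative to the median gene 1.05, 0.34 and 0.64. At 24 h the ratios were 0.31, 0.072 and -0.10, and after median-gene rescaling all 3 were below 0 (-0.036, -0.34 and -0.35).

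MTTP in Control was at 77.4, 77.8, 59.5 and 126 RPKM at the 4 times. Its values were 90.5, 62.2, 113 and 164 in BF and 72.3, 35.9, 72.4 and 133 in BA. The highest value was at 24 h in each title, while the lowest was at 12 h in Control and at 4 h in BF and BA. Log2 ratios to 0 h in Control, BF and BA were 0.0070, -0.53 and -0.99 at 4 h, -0.37, 0.32 and 0.0018 at 12 h and 0.70, 0.85 and 0.87 at 24 h. In BA at 4 h, the column with the high share of albumin, the ratio was -0.73 after median-gene rescaling and -0.87 after total rescaling. The ratio of APOB to MTTP in Control was 11.7, 14.5, 28.3 and 8.88. It was 12.1, 24.4, 11.8 and 7.02 in BF and 15.5, 42.1, 22.1 and 7.81 in BA. It peaked at 12 h in Control and at 4 h in the other titles, and was lowest at 24 h in each.

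Among particle proteins, the ratio of APOB to APOE turned upward in each title. It was 0.0616, 0.1, 0.213 and 0.128 in Control, 0.0909, 0.158, 0.180 and 0.147 in BF and 0.0985, 0.171, 0.211 and 0.146 in BA. The 12 h value was the highest in each title and the 0 h value the lowest.

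**Figure D3:**
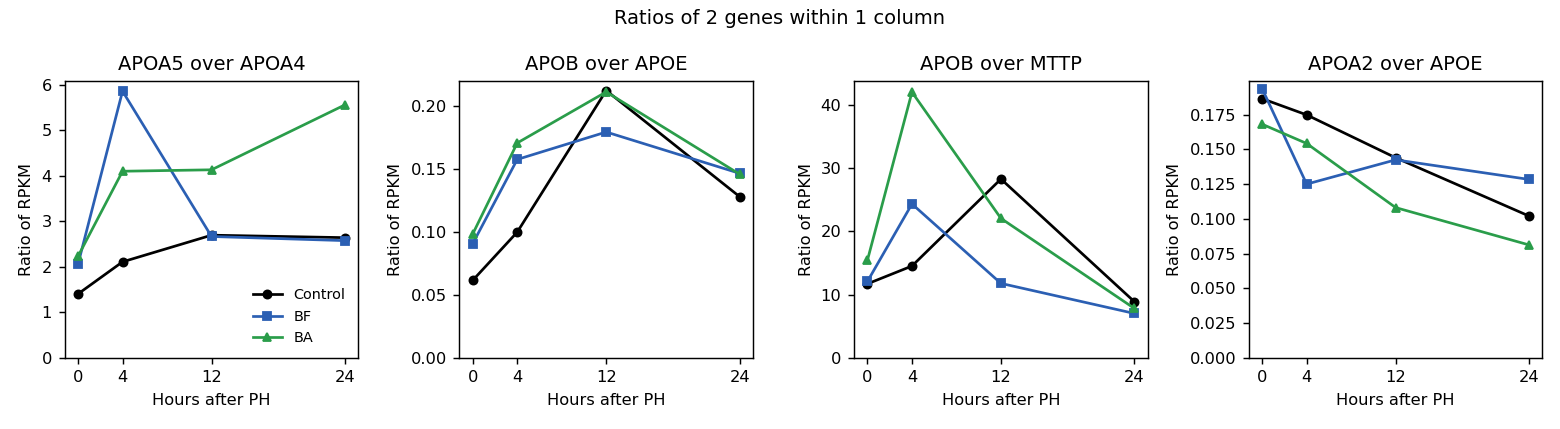
Ratio of the RPKM of 2 genes within 1 column (vertical axes, from 0) against hours after PH in Control (black circles), BF (blue squares) and BA (green triangles). APOB over APOE is highest at 12 h in each title, and APOB over MTTP reaches 42.1 in BA at 4 h.

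APOM and LCAT both act on HDL, and LCAT had the smallest range of the 8 genes. APOM in Control was at 476, 364, 259 and 493 RPKM at 0, 4, 12 and 24 h. It was at 492, 381, 392 and 550.5 in BF and 359, 336, 256 and 422 in BA. The 24 h value was the highest of each title, and the lowest was at 12 h in Control and BA and at 4 h in BF. Log2 ratios at 12 h were -0.87, -0.33 and -0.49 in Control, BF and BA, and those at 24 h were 0.049, 0.16 and 0.23. The 24 h ratios fell below 0 after median-gene rescaling, at -0.29, -0.25 and -0.017.

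LCAT in Control was at 469, 429, 404 and 429 RPKM at the 4 times, in BF at 497, 445, 432 and 396 and in BA at 407, 345, 404 and 415. Its range over the 12 columns was 0.53 on the log2 scale, and 5.21% of the expressed genes had a smaller one. The median range of all genes was 1.10. The ranges were 0.89 for APOB, 1.04 for APOE, 1.10 for APOM, 1.89 for APOA5, 1.94 for APOA4, 2.16 for MTTP and 2.24 for APOA2. For APOA2, 88.9% of genes had a smaller range.

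Counted by direction alone, 4 of the 8 genes (APOA2, APOE, APOM and LCAT) were lower at 4 h than at 0 h in all 3 titles, against 46.7% of all genes. At 12 h there were 5, these and APOA4, against 42.3%. At 24 h there were 3 (APOA2, APOA4 and APOE), against 15.6%. APOA5 and APOB were higher at 4 h in all 3 titles, where 19.7% of genes were, and also at 12 h, where 22.2% were. APOM and MTTP were higher at 24 h, where 54.7% of genes were. On either rescaled scale APOM and LCAT left the lower group at 4 h, which kept APOA2 and APOE, and LCAT left it at 12 h. The share of all genes lower in all 3 titles was then 39.5% (median gene) and 38.3% (total) at 4 h. At 12 h it was 31.4% and 24.4%. At 24 h median-gene rescaling put 6 of the 8 below 0 h (all but APOA5 and MTTP), where 40.2% of genes were. It left MTTP alone above 0 h, where 24.8% of genes were. Total rescaling kept the deposited counts at 24 h, where 12.6% of genes were lower and 60.7% higher in all 3 titles. It put LCAT above 0 h at 12 h, where 41.2% of genes were.

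The study asked how the loss of bile acids from the gut acts on the remnant liver, so the titles were compared at each time. At 0 h, 0 of the 8 genes were at least 2-fold apart between any titles, where 3.89% of genes were between BF and Control, 4.02% between BA and Control and 1.82% between BF and BA. At 4 h APOA4 was lower in both fistula titles than in Control, where Control had 713 RPKM, BF 342 and BA 349. The log2 differences were -1.06 for BF and -1.03 for BA, and these comparisons share the Control column. MTTP at 4 h was at 77.8 RPKM in Control, with 62.2 in BF and 35.9 in BA, a log2 difference of -1.10 for BA against Control. So 1 of the 8 was at least 2-fold apart between BF and Control at 4 h, as were 4.35% of genes, and 2 of the 8 between BA and Control, as were 7.28%.

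The 3 differences at 4 h came close to the threshold and fell under it on either rescaled scale. APOA4 was then at -0.96 and -0.95 in BF against Control, and at -0.78 and -0.87 in BA against Control, for the median-gene and total rescaling. MTTP in BA against Control was at -0.86 and -0.94. APOA5 at 24 h went the other way, with 541 RPKM in Control and 1029 in BA, a log2 difference of 0.93 that reached 2-fold after rescaling, at 1.12 and 1.000.

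Between BF and BA, 0 of the 8 genes were at least 2-fold apart at any time, where 4.72% of all genes were at 4 h, 1.92% at 12 h and 1.86% at 24 h. The same count was 0 for BF against Control at 12 and 24 h (3.52% and 2.08% of genes) and for BA against Control at 12 and 24 h (1.71% and 2.05%). APOA2 had its widest gap between the fistula titles at 24 h, with 1008 RPKM in BF and 579.6 in BA, a log2 difference of 0.80. MTTP at 12 h had 113 RPKM in BF, against 59.5 in Control and 72.4 in BA. Its log2 difference there was 0.92 for BF against Control, in the column with the pancreatic markers. APOM in that column was at 392 RPKM, with 259 in Control and 256 in BA, a log2 difference of 0.59 against Control.

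**Figure D4:**
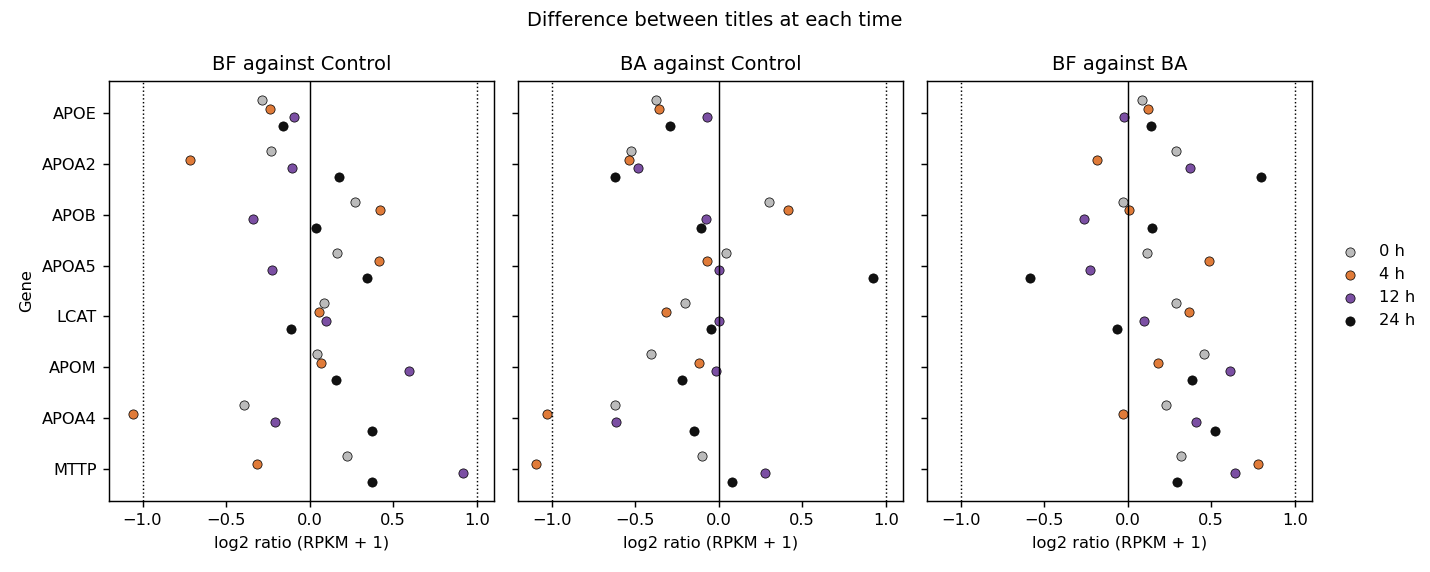
Log2 ratio between titles, after adding 1 RPKM (horizontal axes), for the 8 genes (rows) at 0, 4, 12 and 24 h (grey, orange, purple and black points, 1 ratio of 2 columns each). Dotted lines mark 2-fold, which APOA4 passes at 4 h in both comparisons with Control and MTTP at 4 h in BA against Control.

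Some genes held the same order of titles at all 4 times. APOA2, APOA4, APOE, APOM and LCAT (5 of the 8) were lower in BA than in Control at each time, as were 28.9% of all genes. For LCAT at 12 h this rested on values of 404.3 in BA and 404.4 in Control. The log2 differences of APOA2 in BA against Control were -0.52, -0.54, -0.48 and -0.62 at 0, 4, 12 and 24 h, and those of APOE were -0.37, -0.36, -0.070 and -0.29. For APOM, APOA4 and LCAT the order changed at 1 or more times after median-gene rescaling, while APOA2 and APOE stayed lower in BA. The APOE difference at 12 h was then only -0.016. None of the 8 was higher in BA than in Control at all 4 times, against 3.42% of genes.

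APOE was also lower in BF than in Control at each time, with log2 differences of -0.29, -0.23, -0.093 and -0.16, as were 27.3% of genes. APOM was higher in BF than in Control at each time, by 0.047, 0.067, 0.59 and 0.16, where 5.6% of genes were. Between the fistula titles, APOM and MTTP were higher in BF at all 4 times, against 10.2% of genes. The log2 differences of BF against BA were 0.45, 0.18, 0.61 and 0.38 for APOM and 0.32, 0.78, 0.64 and 0.30 for MTTP. These 4 orders held on either rescaled scale. For APOE in BF against Control, median-gene rescaling left only -0.068, -0.13, -0.036 and -0.0070. None of the 8 was lower in BF than in BA throughout, against 6.51% of genes. The median of the 8 genes at the 4 times was -0.29, -0.34, -0.044 and -0.13 in BA against Control, where the median of all genes was -0.097, -0.22, -0.057 and -0.17. In BF against Control it was 0.066, -0.091, -0.10 and 0.17, with -0.18, -0.067, -0.069 and -0.11 for all genes.

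Correlations across the 12 columns describe which genes shared a course, and the columns share times and titles, so no p is given. For each of the 8 genes the 3 genes with the highest Pearson correlation of log2 RPKM were listed among the 8459. APOA2 was most like APOE (0.93), STAC3 (0.93) and COL14A1 (0.93), and APOE most like COL14A1 (0.97), PON3 (0.97) and ALDH2 (0.97). APOB was most like ZFP46 (0.96), ARFIP2 (0.90) and NFKBIL1 (0.89), and MTTP most like GOLT1A (0.96), MESDC2 (0.92) and CGRRF1 (0.92). For APOM they were AADAC (0.95), PRODH2 (0.93) and ELN (0.93), and for LCAT TP53I11 (0.91), RGD1305680 (0.88) and GPT2 (0.86). APOA5 was most like IGFBP4 (0.91), NNMT (0.86) and FGD5 (0.86), and APOA4 most like GPR116 (0.90), RGD1308114 (0.87) and ETHE1 (0.87). After median-gene rescaling these 24 correlations were at least 0.75, except that of LCAT with GPT2 at 0.39. Among the 8 genes themselves the highest correlation was that of APOA2 with APOE, followed by APOA2 with APOA4 at 0.84. The lowest was that of APOB with APOM at -0.77, and APOA4 with APOA5 had 0.34. After median-gene rescaling these were 0.97, 0.88, -0.33 and 0.60, and the lowest was APOA5 with MTTP at -0.54.

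Other genes of the pathway were read from 7 lists. The list called other apolipoproteins went by symbol. It also held APOBEC1 and A1CF, which act in the editing of APOB mRNA, and APOA1BP, NAXE, APOBR, APOO and APOOL. The list is therefore wider than the proteins of particles. Of its 16 symbols, 12 were found among expressed genes. Their median log2 ratio to 0 h in Control, BF and BA was -0.43, -0.55 and -0.50 at 4 h, -0.98, -0.43 and -0.60 at 12 h and -0.44, -0.19 and -0.095 at 24 h. At least 2-fold lower in all 3 titles were 1 of 12 at 4 h (A1CF), 2 at 12 h (APOF and APON) and 2 at 24 h (APOC1 and APON), and 0 were higher. For all genes these shares were 2.73%, 2.7% and 0.662%. A1CF, the partner protein of the APOB editing enzyme, was at 76.1, 26.9, 21.1 and 49.0 RPKM in Control, with 62.5, 18.9, 37.1 and 61.1 in BF and 51.2, 14.1, 25.2 and 48.9 in BA. APOF, an inhibitor of cholesteryl ester transfer, was at 532, 348, 132 and 191 RPKM in Control, with 352, 224, 96.1 and 185 in BF and 329, 123, 53.7 and 232 in BA. Each was lowest at 4 or 12 h and higher again at 24 h in every title. APOC1 was lowest at 24 h in each title, at 2521 RPKM in Control, with 1805 in BF and 1081 in BA after 6245, 4646 and 3987 at 0 h. APON at 0 and 24 h was at 278 and 71.0 RPKM in Control, 176 and 61.7 in BF and 181 and 81.2 in BA.

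For the assembly and secretion of VLDL, 15 of 20 symbols were found, with medians of -0.057, -0.14 and -0.30 at 4 h, -0.30, 0.056 and 0.082 at 12 h and 0.13, 0.15 and 0.072 at 24 h. After median-gene rescaling the 24 h medians were -0.20, -0.26 and -0.18, below 0 in each title. ACSL1, which activates fatty acids for lipid synthesis, was the 1 gene at least 2-fold lower in all 3 titles at 4 h (2.73% of all genes) and at 12 h (2.7%), and at 12 h alone on either rescaled scale. It was at 749, 369, 111 and 267 RPKM in Control, with 813, 308, 168 and 364 in BF and 668, 199, 134 and 463 in BA. DGAT2, which makes triglyceride, had log2 ratios at 4 h of -0.88, -1.15 and -1.81. P4HB, the subunit that MTTP needs for its activity, was at 703, 589.9, 1157 and 1242 RPKM in Control and between 952 and 1438 in the BF and BA columns. AADAC, the gene most like APOM, was lowest at 12 h in each title, with -1.69, -0.81 and -1.11.

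For receptors and uptake 6 of 10 symbols were found, with medians of -0.56, -0.60 and -0.83 at 4 h, -0.53, -0.35 and -1.03 at 12 h and 0.34, -0.038 and -0.23 at 24 h. SCARB1, the HDL receptor, was at 46.2, 44.6, 23.4 and 71.2 RPKM in Control, with 62.8, 40.7, 49.9 and 51.2 in BF and 67.4, 39.4, 20.2 and 59.7 in BA. It was lowest at 12 h in Control and BA and at 4 h in BF.

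For lipases and remodelling 10 of 16 were found, with medians of -0.50, -0.57 and -0.27 at 4 h, -1.18, -0.75 and -0.47 at 12 h and 0.090, 0.12 and 0.24 at 24 h. With median-gene rescaling the 24 h medians were -0.24, -0.24 and 0.0025. PON3, an HDL enzyme of the paraoxonase family, was the 1 gene at least 2-fold lower in all 3 titles at 12 h (2.7% of all genes) and at 24 h (0.662%). Its log2 ratios were -2.03, -1.53 and -1.34 at 12 h and -1.61, -1.004 and -1.16 at 24 h, and it missed the 24 h count with total rescaling. Median-gene rescaling added LIPC and PON1 to that count. Its relative PON1 was at 1787, 1178, 566 and 569.9 RPKM in Control, with 1013, 646, 506 and 573 in BF and 838, 695, 561 and 463 in BA. LIPC, hepatic lipase, was at 315, 211, 137 and 136 RPKM in Control, with 168, 119.7, 50.2 and 95.8 in BF and 152, 144, 118 and 63.6 in BA, so that its 0 h value was about 2 times as high in Control as in the fistula titles.

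For cholesterol efflux and esters 8 of 12 were found, with medians of -0.30, -0.31 and -0.29 at 4 h, -0.63, -0.35 and -0.29 at 12 h and -0.13, -0.0019 and -0.18 at 24 h. Of these, 0 reached 2-fold in all 3 titles at any time, set beside the shares of all genes above, and with median-gene rescaling CES3 was that much lower at 24 h. ABCA1, which loads cholesterol onto new HDL, was at 21.5, 48.4, 27.6 and 28.4 RPKM in Control, with 34.9, 40.1, 26.2 and 25.4 in BF and 35.6, 89.5, 27.3 and 30.7 in BA, highest at 4 h in each title. ABCG5, which exports sterols into bile, was at 30.7 RPKM in Control, with 6.12 in BF and 4 in BA at 0 h, and CES3, a carboxylesterase, at 253, 39.8 and 63.7. SOAT2, which esterifies cholesterol, was at 33, 37.4 and 21.8 RPKM at 0 h in Control, BF and BA.

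For regulators 14 of 19 were found, with medians of -0.50, -0.66 and -0.84 at 4 h, -0.57, -0.37 and -0.47 at 12 h and -0.067, -0.0090 and 0.024 at 24 h. CEBPA, a factor of mature hepatocytes, was the 1 gene at least 2-fold lower in all 3 titles at 4 h (2.73% of all genes) and at 12 h (2.7%, missed with total rescaling). Its log2 ratios at 4 h were -1.62, -1.35 and -1.49. PPARGC1A, a coactivator of fasting metabolism, was the 1 gene at least 2-fold higher in all 3 titles at 4 h (1.71% of all genes), at 0.74 to 1.42 RPKM at 0 h and 4.35 to 10.4 at 4 h. HNF4A, which drives many apolipoprotein genes, was at 174, 163, 162 and 169 RPKM in Control, with 169, 146, 152 and 169 in BF and 218, 118, 132 and 156 in BA. Log2 ratios at 4 h were -0.82, -1.87 and -1.59 for THRB, a thyroid hormone receptor. They were -2.88, -0.71 and -1.21 for FOXA2, a factor of liver development.

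As a comparison, 19 of 20 other secreted hepatocyte proteins were found, with medians of -0.29, -0.30 and -0.14 at 4 h, -0.30, -0.16 and -0.39 at 12 h and -0.094, -0.12 and -0.12 at 24 h. At 12 h 2 of the 19, ALB and PLG, were at least 2-fold lower in all 3 titles, as were 2.7% of all genes, and 0 on either rescaled scale. FGB and FGG, chains of fibrinogen, were at least 2-fold higher (2 of the 19), as were 0.414% of all genes, and the FGA chain joined them on either rescaled scale. FGG was at 4976, 17043, 32814 and 14499 RPKM in Control, with 10997, 23169, 29519.8 and 18914 in BF and 16003, 26687, 32201 and 19988 in BA. The log2 ratios at 12 h were 2.75, 1.37 and 1.02 for FGB and 2.72, 1.41 and 0.87 for FGA. PLG, plasminogen, was at 1634, 1872 and 1624 RPKM at 0 h and at 801, 874 and 732 at 12 h in Control, BF and BA.

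**Figure D5:**
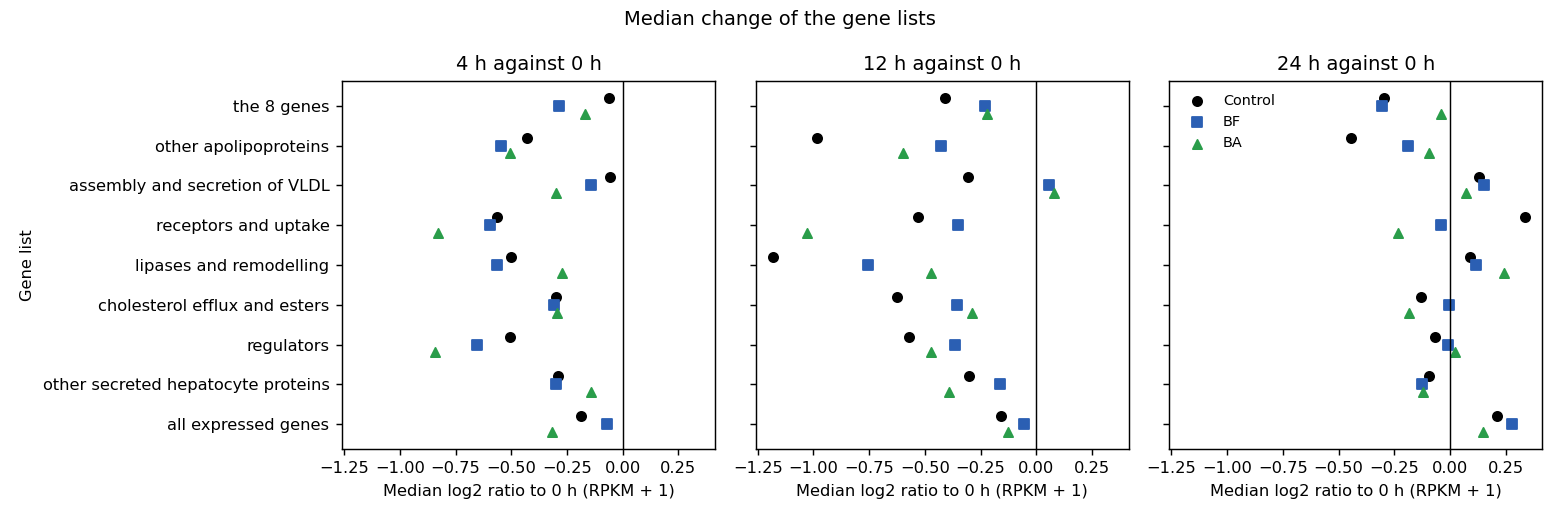
Median log2 ratio to 0 h, after adding 1 RPKM (horizontal axes), of the 8 genes, the 7 lists and all 8459 expressed genes at 4, 12 and 24 h in Control (black circles), BF (blue squares) and BA (green triangles). At 12 h the medians of the list other apolipoproteins lie at -0.98, -0.43 and -0.60 in Control, BF and BA. Those of lipases lie at -1.18, -0.75 and -0.47, and those of all genes at -0.16, -0.054 and -0.13.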

How the data were processed

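The deposited table held RPKM values with 2 decimals, which the authors computed from TruSeq poly(A)+ libraries and combined from 2 runs into 1 column per title and time. The submitters' processing notes name CASAVA, Bowtie 0.12.2 and the builds rn4 and mm8, with no role. The annotation, filters and weights of the runs are not given in the sources used here. RPKM keeps no read depth, and an abundant transcript can lower all others. One gene without a value and 2303 at 0 left 12388 genes, of which 8459 had a mean of at least 1 RPKM. From the deposited values log2 ratios were computed with a pseudocount of 1 RPKM, which understates changes of weakly expressed genes. Columns were grouped by sample title. No test was run, since each group was 1 column. Named genes were the 8 genes, the 3 most alike genes for each, the 3 genes of each list with the largest mean size of log2 ratio, and HNF4A, LIPC, ABCA1 and P4HB. Some genes selected by this rule are not reported here. CYP7A1, ALB, PLG, PPARGC1A and the APOC genes were added after their values were seen, as were the motifs. The genes and lists were chosen with earlier results of these data known. Counting was run on simulated columns with planted changes well beyond 2-fold and little noise. That checks the code and says nothing about values near the threshold. Alternatives were another pseudocount, no filter, rescaled columns, exchanged titles and leaving out columns. Python 3.11.15, numpy 2.4.6, pandas 2.3.3 and matplotlib 3.10.9 were used.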

Additional observations from a re-analysis of the deposited data

Results flagged for a closer look

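For 6 of 24 pairs of a gene and a time, the log2 ratio to 0 h was above 0 in at least 1 title and below 0 in another, and these differences between titles were not tested. The gap between the highest and the lowest title was 0.998 for MTTP at 4 h, with 0.0070, -0.53 and -0.99 in Control, BF and BA. It was 0.69 for MTTP at 12 h, with -0.37, 0.32 and 0.0018. For APOA5 at 24 h it was 0.88, with -0.46, -0.29 and 0.42. APOA4 at 4 h had a gap of 0.67, with 0.42, -0.24 and 0.017. APOB at 24 h had 0.41, with 0.31, 0.072 and -0.10, and LCAT at 24 h had 0.35, with -0.13, -0.33 and 0.027. In 0 of the 6 did the ratio reach 0.5 in size on both sides of 0, and each rests on 1 column per title and time.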

How the results depend on the processing

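A fit that treats the 4 times or the 3 titles as replicates of each other was not run. Over the alternatives, 141 of 152 counts and medians moved by less than 1.5 times, and so did all 504 single ratios of the 8 genes. For log2 values this is the fold of the ratio itself and not of its log. Rescaling multiplies a ratio by the quotient of 2 column factors, nearly the same for every gene. Another pseudocount hardly moves genes at 35.9 RPKM or more. The result for the 504 ratios was therefore set by the column factors and shows nothing about single genes. Under rescaling and the other pseudocount the medians of log2 ratios were bound in the same way. None of these medians counted as moved, not even one that changed sign, so 141 of 152 is no measure of robustness. For the medians here, each gene's log2 ratio was first averaged over the 3 titles, so they differ from the medians per title above. That of the 8 genes at 12 h was -0.26 as deposited and -0.015 with total rescaling. At 24 h it was -0.13 and, with median-gene rescaling, -0.46. By the same measure the VLDL list at 24 h went from 0.20 to -0.12 with median-gene rescaling. The lipase list at 12 h went from -0.95 to -0.44 without the filter on low values. Rescaling changed the sign of 22 of 168 ratios (median gene) and 13 of 168 (total), none larger than 0.31 on the log2 scale, and another pseudocount changed 0 of 168. In the following counts of genes, values near 2-fold crossed it or the titles traded places. At least 2-fold lower in all 3 titles were 0 genes at 12 h with total rescaling (1 as deposited) and 2 at 24 h with median-gene rescaling (1 as deposited). At least 2-fold higher at 4 h was 1 gene, against 0, with either rescaling and without the BA columns. At least 2-fold apart between BF and Control were 0 with either rescaling and 2 with the titles exchanged, against 1. Between BA and Control there was 1 with either rescaling and 1 with the titles exchanged, against 2. The 1 with rescaling was APOA5 at 24 h, and the 2 as deposited were APOA4 and MTTP at 4 h. Unknown depth and single columns limit every value, and the spread between rats cannot be seen. Differences between BF and BA also turn on which title had the infusion.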

Other observations

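APOE lies beside a small cluster of apolipoprotein C genes, and in the GRCr8 annotation APOC2, APOC4, APOC1 and APOE follow one another on chromosome 1. Their ratios to APOE within a column, which do not depend on its scaling, took different courses after PH and were picked after their values were seen. APOC4 over APOE in Control was 0.0410, 0.0495, 0.0574 and 0.0965 at 0, 4, 12 and 24 h, in BF 0.0718, 0.0916, 0.111 and 0.125 and in BA 0.0623, 0.0622, 0.0628 and 0.1201. The 24 h ratio was the highest in each title. APOC1 over APOE was 0.425, 0.450, 0.372 and 0.288 in Control, 0.386, 0.355, 0.270 and 0.230 in BF and 0.351, 0.340, 0.344 and 0.152 in BA, lowest at 24 h in each. APOC2 over APOE, for the cofactor of lipoprotein lipase, was 0.132, 0.141, 0.118 and 0.121 in Control, 0.153, 0.182, 0.182 and 0.171 in BF and 0.113, 0.105, 0.109 and 0.154 in BA, with no common order of times.

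STAC3, second among the genes most like APOA2, ranged from 0.03 to 173 RPKM over the 12 columns.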
